A study of Rattus norvegicus with 244 samples.

Results

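The genes described here are Nrgn, Arpp21, Itpka, Crym, Ddn, Fam107a, Mef2c, Hpcal4 and Ptk2b, 9 of the 10969 rat genes that had a probe set with a single gene symbol on the 3 array types, called A, B and C. They were selected on the measured signals of naive rats, because these were far higher in the somatomotor cortex than in the raphe. Among all genes ranked by the difference of the naive means they took ranks 2 to 10. The first rank was held by Cck, a neuropeptide gene that was not counted with this group. Each gene was read from its strongest probe set by mean signal, and 10 further probe sets of these genes served as a check.

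RNA was measured in 84 samples, 41 of raphe and 43 of somatomotor cortex, on 244 arrays. Naive rats gave 4 samples of each region. Rats with a moderate spinal cord injury gave 24 samples of each region, 4 at each of 4 h, 24 h, 7 days, 14 days, 28 days and 3 months. Rats with a laminectomy and no cord injury, called sham, gave 2 samples of each region at each of these times. Further sham samples at 30 min (1 raphe, 2 cortex) and 72 h (1 cortex) had no injured counterpart. The labels give no strain, sex or age, and they do not say that samples came from separate animals, so p-values measure the spread between these samples, which may be technical. They call the sham and naive tissue Raphe Magno and the injured tissue Raphe, so dissection and injury cannot be told apart there if the dissections differed. Signals are on the log2 scale after 32 was added to the deposited value, and ± marks a standard error unless SD is named.

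Several of these genes are known from the dendrites and spines of forebrain projection neurons, where calcium entering at synapses is read by binding proteins, kinases and phosphatases. Neurogranin (Nrgn) holds calmodulin at the synapse until calcium rises, and the product of Arpp21 is a phosphoprotein regulated by cyclic AMP that also binds calmodulin. Itpka encodes a kinase that phosphorylates inositol trisphosphate, the messenger that releases stored calcium, and it binds actin in spines. Hpcal4 belongs to the neuronal calcium sensors, and Ptk2b encodes Pyk2, a tyrosine kinase switched on by calcium. Dendrin (Ddn) lies in dendrites, and the product of Fam107a binds actin. Mef2c is a transcription factor driven by neuronal activity, and mu-crystallin (Crym) binds thyroid hormone in the cytosol. In tissue RNA such as this, fewer cells of a type and less RNA per cell cannot be told apart.

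The DNA just upstream of the start site is shown for the 4 members that could be matched in the RefSeq promoter table of the assembly GRCr8, because these members shared a regional pattern of RNA. Each stretch holds 250 bases, printed 5′ to 3′ in the direction of the gene. Capitals mark matches, on either strand, to the GC box GGGCGG and to the MEF2 site, the element bound by the family of Mef2c.
Nrgn: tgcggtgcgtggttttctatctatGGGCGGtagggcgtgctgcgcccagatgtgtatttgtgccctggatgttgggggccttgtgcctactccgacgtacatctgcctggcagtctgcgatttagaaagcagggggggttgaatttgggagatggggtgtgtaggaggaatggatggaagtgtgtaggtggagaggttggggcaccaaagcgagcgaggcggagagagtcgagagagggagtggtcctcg
Arpp21: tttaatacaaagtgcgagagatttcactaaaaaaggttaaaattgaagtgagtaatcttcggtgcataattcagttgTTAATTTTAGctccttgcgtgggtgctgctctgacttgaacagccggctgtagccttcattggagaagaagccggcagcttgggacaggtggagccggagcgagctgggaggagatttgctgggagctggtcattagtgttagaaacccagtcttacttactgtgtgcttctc
Hpcal4: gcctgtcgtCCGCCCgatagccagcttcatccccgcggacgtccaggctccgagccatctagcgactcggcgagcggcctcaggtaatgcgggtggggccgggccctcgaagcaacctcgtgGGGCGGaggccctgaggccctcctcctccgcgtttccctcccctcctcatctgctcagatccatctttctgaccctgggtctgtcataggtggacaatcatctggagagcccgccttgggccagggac
Fam107a: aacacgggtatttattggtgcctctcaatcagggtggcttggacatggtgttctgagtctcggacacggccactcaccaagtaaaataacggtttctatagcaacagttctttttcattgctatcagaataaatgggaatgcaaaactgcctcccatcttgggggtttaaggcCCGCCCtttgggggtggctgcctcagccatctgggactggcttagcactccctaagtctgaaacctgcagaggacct

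The Nrgn stretch lies on the minus strand at chr8:45452418-45452667 and the Arpp21 stretch on the minus strand of the same chromosome at chr8:121031358-121031607. Hpcal4 is on the plus strand at chr5:140739658-140739907 and Fam107a on the plus strand at chr15:19046331-19046580. GC content was 66.4% for Hpcal4, 58% for Nrgn, 50% for Fam107a and 46.4% for Arpp21, around a median of 51.2% over 33469 promoters. A GC box was found in 3 of the 4, against 30.5% of all promoters. It began at position -226 of Nrgn, -77 of Fam107a and at -241 and -128 of Hpcal4, counted from the start site. Arpp21 held the single MEF2 match, at -173, a motif present in 2.96% of all promoters. The E-box CANNTG was present in all 4, against 65.5% of all promoters. None of the 4 stretches held TATAAA (12.9% of all promoters), the cyclic AMP response element TGACGTCA (1.59%) or its shorter form TGACG (18.2%), which the longer one contains. None of the capitalised matches overlapped another. These are matches of letters in 1 window per gene and were not tested for binding.

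The raphe and the cortex sample titled sham, 3 months, replicate 1 went against their region labels and were left out of every value below unless stated. The raphe sample had arrays of types B and C, and its 5 measured members lay within the range of the cortex samples: Arpp21 at 12.99, Crym at 12.02, Fam107a at 14.83, Hpcal4 at 14.74 and Mef2c at 10.25. In the cortex sample 8 of the 9 members lay below all other sham and injured cortex samples, among them Arpp21 at 9.98, Itpka at 9.55 and Nrgn at 13.26. With both samples kept, all 9 members still had a higher mean in sham cortex than in sham raphe, by 5.45 for Itpka and 4.95 for Arpp21. Sham at 3 months was left with 1 sample per region. A further 3 samples stood apart in earlier work on these data, injured raphe at 4 h, replicate 1, sham cortex at 14 days, replicate 2, and injured cortex at 7 days, replicate 2, and they were kept except where stated.

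In naive rats each of the 9 genes had its lowest cortex sample above its highest raphe sample. The difference of these means chose the genes, so the values are a description with no test. Nrgn had a median signal of 29177 in naive cortex and 562 in naive raphe before the log. On the log2 scale the 4 naive cortex samples of Nrgn read 14.79, 14.88, 14.80 and 14.87, and the 4 raphe samples 9.13, 9.30, 9.51 and 8.40. The difference of the means was 5.75 for Nrgn, the largest of the 9. Arpp21 read 12.93, 13.33, 13.08 and 12.67 in naive cortex and 7.49, 5.99, 8.10 and 7.66 in naive raphe, a difference of 5.70. Its raphe samples were the most spread of the 9, with 1 sample well under the other three. Itpka read 11.37, 11.20, 11.51 and 11.39 in cortex and 6.03, 5.70, 5.87 and 5.51 in raphe, a difference of 5.59. Crym followed with 12.03, 11.88, 11.99 and 11.87 in cortex, and its 3 raphe samples on type C read 6.49, 7.08 and 6.16, a difference of 5.36.

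The other five members had smaller differences in naive rats. Ddn read 12.92, 12.61, 12.86 and 12.97 in cortex and 8.51, 8.23, 8.22 and 8.57 in raphe, a difference of 4.46. Fam107a read 14.44, 14.65, 14.80 and 14.56 in cortex and 10.76, 10.47 and 10.33 in raphe, a difference of 4.09. Both regions were tight for Hpcal4, at 14.38, 14.24, 14.32 and 14.43 in cortex and 10.28, 10.35, 10.52 and 10.48 in raphe, a difference of 3.94. Mef2c read 11.80, 11.74, 10.89 and 11.24 in cortex and 6.89, 7.65 and 7.79 in raphe, a difference of 3.98. Ptk2b closed the list at 3.90, with 10.74, 10.60, 10.92 and 10.92 in cortex and 6.41, 6.61, 7.95 and 6.62 in raphe. The genes just outside the choice were Wipf3, at 3.63, and Itpr1, the receptor that releases calcium on binding inositol trisphosphate, at 3.52.

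**Figure D1:**
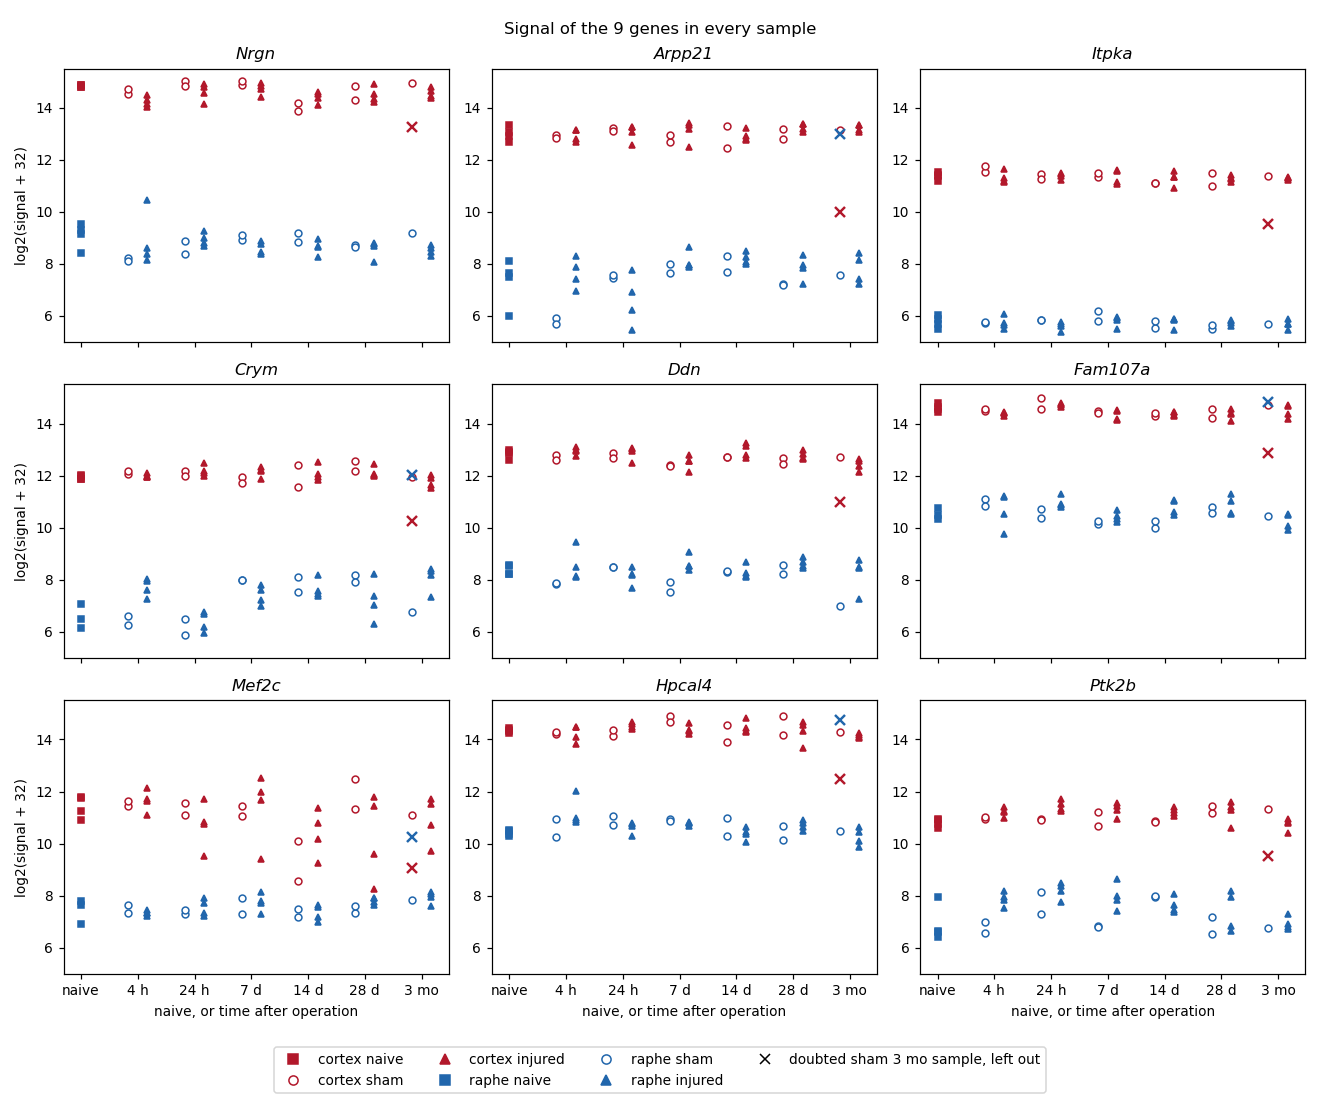
Signals of the 9 members (log2 of the value plus 32, y axis) by time group (x axis) in both regions, one point per sample: squares are naive, open circles sham and triangles injured samples, and crosses are the 2 sham samples at 3 months that were left out. Leaving the crosses aside, cortex points stand above raphe points in every panel, with the narrowest margin in Mef2c, where the lowest cortex and highest raphe sample differ by 0.10.

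Sham and injured samples entered the ranking only through the choice of the strongest probe set and the filter on low signals. In sham samples the 7 members that passed the filter in both regions were all higher in cortex than in raphe. In this comparison 17.8% of all probe sets were higher and 16.7% lower. Itpka and Mef2c were at background in raphe, above the 40th percentile of their array in 0 of 40 and 1 of 38 raphe samples. They entered through cortex alone, so their differences are given as values with no test. Of the 7, Crym was above that percentile in 6 of 38 raphe samples and Arpp21 in 14 of 39. The median percentile of Crym in raphe, 28.3, was below the 31.5 of Mef2c. The differences of Crym and Arpp21 thus also rest on raphe signals near background. Over the 6 times, the sham difference was 5.88 ± 0.16 for Nrgn (59-fold on this scale), 5.66 ± 0.20 for Arpp21 and 5.60 ± 0.091 for Itpka. Crym followed at 4.84 ± 0.16 and Ddn at 4.68 ± 0.13. It was 4.04 ± 0.12 for Fam107a, 3.90 ± 0.16 for Ptk2b, 3.74 ± 0.13 for Hpcal4 and 3.56 ± 0.31 for Mef2c. By limma, with Benjamini-Hochberg adjustment over all 19402 probe sets tested, adjusted p for the 7 ran from 1.81e-38 for Nrgn to 5.57e-29 for Ptk2b (11 sham samples per region). The median difference was 4.68 over these 7 and 0.025 over all probe sets. The choice on naive samples leans the members to this direction, so the values give its size in operated rats and are not separate support for it.

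After injury the order was nearly the same and the same 7 were again higher in cortex, where 24.0% of all probe sets were higher and 24.3% lower. Nrgn differed by 5.81 ± 0.10, Itpka by 5.59 ± 0.060, Arpp21 by 5.38 ± 0.13, Crym by 4.65 ± 0.10 and Ddn by 4.34 ± 0.088. Fam107a differed by 3.78 ± 0.078, Hpcal4 by 3.69 ± 0.084, Ptk2b by 3.53 ± 0.11 and Mef2c by 3.27 ± 0.20. For the 7, adjusted p by limma ran from 1.59e-48 for Nrgn to 1.10e-36 for Ptk2b (24 injured samples per region). The sizes depend on the value added before the log where raphe signals are low, as for Itpka and Mef2c. Raphe signals were low before the log also for Arpp21 (12.1 to 372), Crym (26.5 to 309) and Ptk2b (53.1 to 369). The raphe signal of Itpka lay between 9.88 and 40.7 before the log. With 1 in place of 32 added, its sham difference was 6.85, and with 4 times 32 added it was 4.18. For Mef2c these were 3.81 and 3.03, and its other probe set gave 4.73.

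From group to group the regional difference varied more in some members than in others. Itpka had the smallest range, between 5.41 and 5.89 over naive, sham and injured groups. Its raphe signal was at background, where the value added before the log makes up much of the level. The small range thus does not show that its regional difference was steadier than that of other members. Fam107a lay between 3.50 and 4.25. Nrgn ran from 5.0 in sham at 14 days to 6.44 in sham at 4 h, and Arpp21 from 4.71 in injured rats at 14 days to 7.09 in sham at 4 h. Crym ran from 3.71 in injured rats at 3 months to 5.90 in sham at 24 h. Mef2c had the lowest value of all, 2.01 in sham at 14 days, and reached 4.46. No group of any member had a difference of 0 or below.

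**Figure D2:**
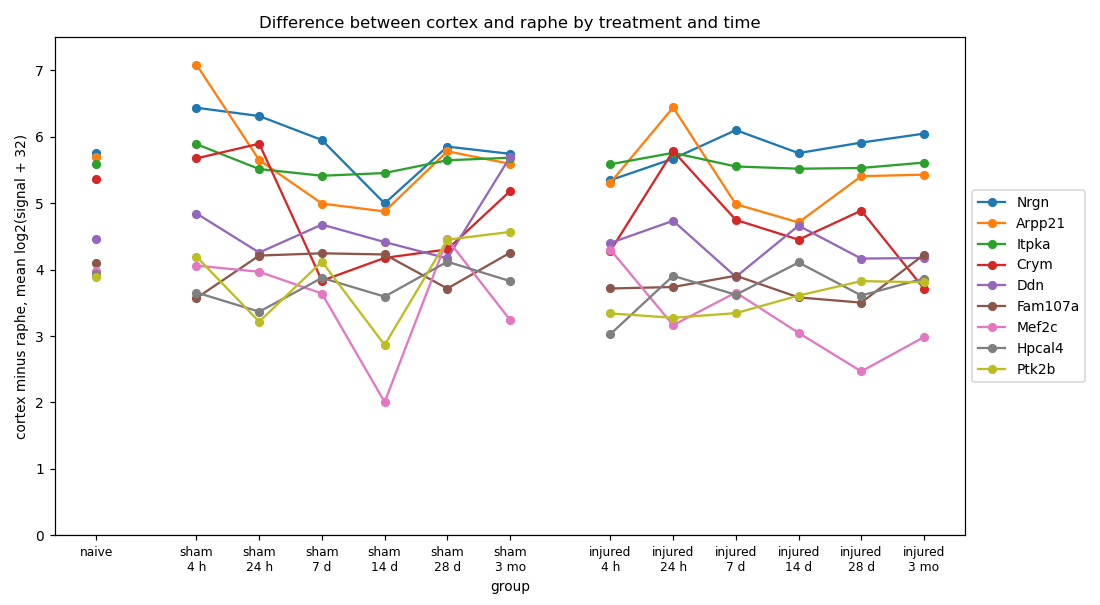
Cortex minus raphe difference of group means (log2, y axis) for each of the 9 members by group (x axis: naive, then sham and injured at 6 times). Every point lies above 0, from 2.01 for Mef2c in sham samples at 14 days to 7.09 for Arpp21 in sham samples at 4 h.

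Whether the regional difference itself changed with injury was tested as the injury effect in cortex minus that in raphe. None of the 9 members passed, and neither did any of the 19402 probe sets (0%; 1336 had an unadjusted p under 0.05, 1 of them a member). The value was below 0 for all 9 members, with a median of -0.26 against -0.0069 over all probe sets. The members were read in the same few sham samples, so their shared direction is not separate support. Itpka and Mef2c count among the 9, although they were at background in raphe, where an injury effect could not be measured for them. Ptk2b had the largest size, -0.37 ± 0.20 (limma adjusted p = 0.74). Ddn had -0.34 ± 0.16 (95% interval -0.66 to -0.016, unadjusted p = 0.040, adjusted p = 0.71), and Fam107a -0.26 ± 0.14 (adjusted p = 0.76). The other members lay between -0.29 and -0.0071. The direction of Fam107a turned to 0.26 when the doubted samples were kept, and that of Ptk2b to 0.23 with its other probe set.

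Within the cortex, no member passed the test of injured against sham samples over the 6 times (0 of 9, 0 also at an unadjusted p under 0.05), where 0.123% of 18682 probe sets passed by limma. Among the calcium and calmodulin genes, Nrgn spanned 13.87, 14.82 and 15.03 (lowest, median, highest) in 11 sham samples and 14.04, 14.49 and 14.95 in 24 injured samples. Its difference was -0.16 (95% interval -0.35 to 0.018, adjusted p = 0.53), and the ranges overlapped almost wholly. Arpp21 spanned 12.43, 12.97 and 13.29 in sham and 12.47, 13.15 and 13.40 after injury, a difference of 0.095 (interval -0.12 to 0.31). Itpka spanned 10.99, 11.38 and 11.75 in sham and 10.90, 11.31 and 11.63 after injury, a difference of -0.034 (interval -0.19 to 0.12). Hpcal4 differed by -0.049 (interval -0.26 to 0.16). Ptk2b spanned 10.68, 10.96 and 11.45 in sham and 10.39, 11.27 and 11.73 after injury, a difference of 0.14 (interval -0.050 to 0.33, adjusted p = 0.64).

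The cytoskeletal genes, the thyroid hormone binder and the transcription factor did not pass in cortex either. Ddn differed by 0.11 (interval -0.059 to 0.28, adjusted p = 0.69) and Fam107a by -0.092 (interval -0.23 to 0.046, adjusted p = 0.68). Crym spanned 11.57, 12.05 and 12.55 in sham and 11.54, 12.02 and 12.53 after injury, a difference of 0.0052 (interval -0.17 to 0.18). For these 3 genes, as for Itpka, the interval leaves no room for a mean log2 change of 0.3 or more over the 6 times. Opposite changes cancel in that mean, so a change of this size at a single time is not excluded. Mef2c was far less precise, with a difference of -0.19 and an interval from -0.88 to 0.51. Its cortex samples spanned 8.57 to 12.49 in sham and 8.24 to 12.52 after injury. Of the microglia and macrophage markers Aif1 passed the same comparison, higher by 0.68 ± 0.10 after injury (adjusted p = 0.00248). It was higher by 2.79 at 4 h alone, and its sham samples changed over time as well (range 2.75, adjusted p = 2.26e-06).

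**Figure D3:**
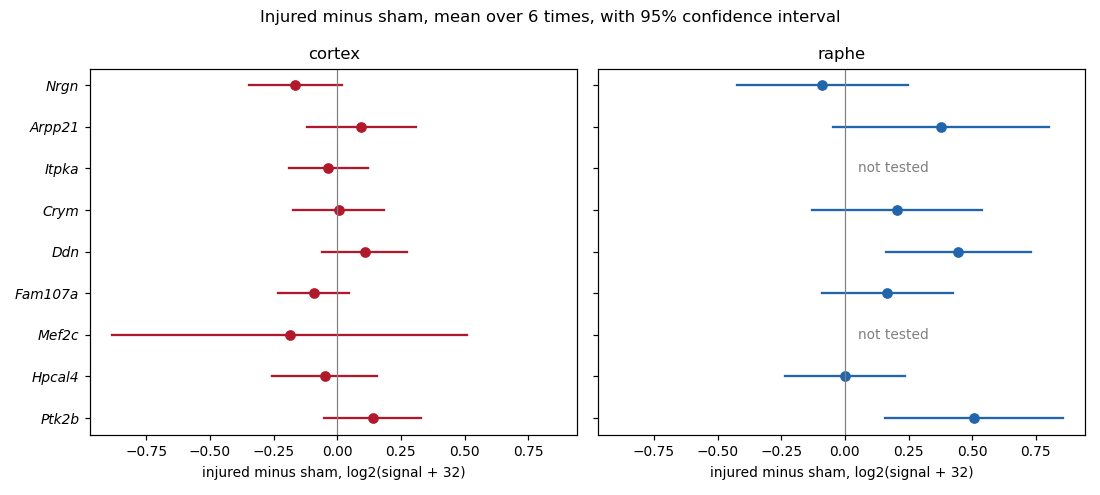
Injured minus sham difference over the 6 times (log2, x axis) for each member (y axis) in both regions, with 95% intervals from limma as bars. In cortex all 9 intervals include 0, and in raphe those of Ddn (0.16 to 0.73) and Ptk2b (0.16 to 0.86) do not, although neither passed after adjustment; Itpka and Mef2c were not tested in raphe.

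The spread between cortex samples of a group was small for most members. The residual SD was 0.162 for Fam107a, 0.185 for Itpka, 0.202 for Ddn, 0.227 for both Nrgn and Crym, 0.238 for Ptk2b, 0.264 for Hpcal4 and 0.274 for Arpp21. These 8 lay below the median of all tested probe sets, 0.337. Mef2c was the exception, with a residual SD of 0.971, at the 99.6th percentile, and its other probe set on type B had 0.610, at the 87.7th percentile. The scatter of Mef2c fell within groups: 4 injured samples at 28 days read 9.59, 11.44, 8.24 and 11.81, and 4 at 7 days read 11.69, 11.97, 12.52 and 9.39. Samples that differed by more than 3 on the log2 scale thus shared a group.

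At single times in cortex no member passed by limma (0 of 54 tests of injured against sham, 2 members at an unadjusted p under 0.05), where 0.136% of all tests passed. Ptk2b at 24 h read 11.34, 11.52, 11.26 and 11.73 in injured and 10.96 and 10.91 in sham samples. The groups did not overlap, and the difference was 0.53 ± 0.22 (adjusted p = 0.41). It was 0.56 without replicates 1 and 2 on type A, whose descriptions give 4 h where their titles give 24 h, and 0.11 with the other probe set of Ptk2b. At 3 months its injured samples read 10.39, 10.84, 10.80 and 10.94, all below the 1 sham sample at 11.34. That difference was -0.60 ± 0.28 (adjusted p = 0.51), and it turned to 0.32 when the doubted sham sample was kept. Mef2c at 28 days differed by -1.64 ± 0.79 (adjusted p = 0.53), from sham samples at 11.32 and 12.49. At 14 days all 9 members had a value above sham, with a median of 0.23 against -0.068 over all probe sets. Without the doubted sham sample of that time, 6 of 9 did, with a median of 0.17. At 3 months 8 of the 9 had a value below sham, with a median of -0.17 against 0.023 over all probe sets. All these values rest on the same 1 sham sample.

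The course over time was tested in injured and in sham samples apart. Over the 6 times of the injured cortex samples no member passed the F test of limma (0 of 9, 2 at an unadjusted p under 0.05; 1.39% of all probe sets passed). Ddn came closest, with a range of group means of 0.53 (adjusted p = 0.114). Its injured samples read 13.12, 12.67, 13.24 and 12.79 at 14 days and 12.57, 12.62, 12.15 and 12.36 at 3 months, without overlap. Ptk2b had a range of 0.72 (adjusted p = 0.159) and Fam107a one of 0.38 (adjusted p = 0.320). With array quality weights, Ddn (adjusted p = 0.0208) and Ptk2b (adjusted p = 0.0188) passed.

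Sham samples over the same times gave no member past the F test either (0 of 9, 1 at an unadjusted p under 0.05; 1.27% of all probe sets passed). The smallest p belonged to Nrgn, with a range of 0.94 (adjusted p = 0.110). Its sham samples read 14.52 and 14.70 at 4 h, 15.02 and 14.84 at 24 h, 14.88 and 15.03 at 7 days, 14.17 and 13.87 at 14 days, 14.29 and 14.82 at 28 days and 14.93 at 3 months. Both samples at 14 days lay below all others, and without all 5 doubted samples, replicate 2 at 14 days among them, the adjusted p was 0.520. Mef2c was low at the same time, at 10.09 and 8.57, but did not pass (adjusted p = 0.446), nor did Fam107a (adjusted p = 0.530). A change of the injury effect over time was found for 0 of 9 members (1 at an unadjusted p under 0.05), against 0.230% of all probe sets, with Ptk2b at an adjusted p of 0.357. These shares of all probe sets rest on single samples: without sham cortex at 14 days, replicate 1, the sham course gave 2118 probe sets in place of 237 and the change over time 1471 in place of 43, still with no member.

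In raphe 7 of the 9 members passed the filter on low signals, and Itpka and Mef2c did not and were not tested there. Over the 6 times no tested member differed between injured and sham samples by limma (0 of 7, 2 at an unadjusted p under 0.05), where 0.622% of 18645 probe sets passed. Ddn had the smallest p. It spanned 7.00, 8.21 and 8.58 in 11 sham samples and 7.26, 8.47 and 9.45 in 24 injured samples, a difference of 0.45 ± 0.14 (interval 0.16 to 0.73, adjusted p = 0.127). Without injured raphe at 3 months, replicate 3, which read 7.26, the difference of Ddn was 0.50 and passed (adjusted p = 0.0448), and with array quality weights it was 0.40 (adjusted p = 0.0193). Without all 5 doubted samples it was also 0.40 and did not pass (adjusted p = 0.0503). Without the 3 months groups, where sham is 1 sample at 7.00, it was 0.29 (adjusted p = 0.319).

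Ptk2b spanned 6.53, 7.00 and 8.14 in sham raphe and 6.64, 7.79 and 8.65 in injured raphe, a difference of 0.51 ± 0.17 (interval 0.16 to 0.86, adjusted p = 0.157). With array quality weights it was 0.52 (adjusted p = 0.0457), whereas it was 0.32 with 4 times 32 added (adjusted p = 0.173) and -0.25 by the other probe set of Ptk2b. At 7 days its injured samples read 7.99, 7.40, 7.84 and 8.65, all above sham at 6.83 and 6.81. At 3 months they read 6.81, 7.31, 6.90 and 6.71. Arpp21 had a difference of 0.38 ± 0.21 (interval -0.047 to 0.80, adjusted p = 0.44), Crym one of 0.20 (interval -0.13 to 0.54) and Fam107a one of 0.17 (interval -0.091 to 0.42). Hpcal4 was level at 0.00019 (interval -0.23 to 0.23), and Nrgn gave -0.088 (interval -0.42 to 0.25).

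At single times in raphe no member passed by limma (0 of 42 tests, 6 members at an unadjusted p under 0.05), where 0.108% of all tests passed. The earliest time stood out in size. At 4 h, 6 of 7 members had a value above sham, with a median of 0.72 against -0.010 over all probe sets. Without injured replicate 1, which is doubted, 7 of 7 did, and the median was 0.38. Arpp21 read 8.30, 7.41, 6.95 and 7.89 in injured raphe at 4 h and 5.92 and 5.71 in sham, without overlap, a difference of 1.83 ± 0.48 (adjusted p = 0.146). Without that sample it was 1.61, while the 3 other probe sets of Arpp21 tested in raphe gave 1.26, -0.066 and -0.40. Crym at 4 h differed by 1.28 ± 0.38 (adjusted p = 0.228). Ddn at 3 months read 8.49, 8.46, 7.26 and 8.77 against 1 sham sample at 7.00, a difference of 1.24 ± 0.42 (adjusted p = 0.314), which passed with array quality weights (1.31, adjusted p = 0.0348).

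Markers of other cell types were summed for the same samples at 4 h in raphe. The strongest genes rule such sums, so a sum need not follow its whole list. Among astrocyte markers the median raphe signal was 66726 for Aldoc and 30696 for S100b, against 206 for Slc1a2. Among oligodendrocyte markers it was 69533 for Mbp and 3857 for Mog. The summed signal of 7 astrocyte markers lay between 80794 and 108346 in injured and between 145623 and 160357 in sham samples, without overlap. That of 6 oligodendrocyte markers lay between 82343 and 126458 in injured and between 137027 and 145320 in sham samples, without overlap, and Mbp, a myelin protein gene, fell by 0.91 (limma adjusted p = 0.0296). That of 6 genes listed as striatal markers lay between 3749 and 4964 in injured and between 5045 and 5647 in sham samples. Its strongest genes in raphe were Penk and Tac1, with median signals of 2033 and 1981 there and 892 and 849 in cortex. The sum is thus no measure of striatal tissue. For the microglia and macrophage markers the injured range, 8815 to 26306, enclosed the sham range, 12324 to 12998, and the pan-neuronal, forebrain, brainstem and blood and vessel sums overlapped too. Mbp was the single marker of these lists that passed at 4 h. Such gaps were not particular to 4 h. At 7 days the oligodendrocyte sum in raphe lay between 116527 and 133524 in injured and between 190231 and 194841 in sham samples. The astrocyte sum then lay between 104976 and 121932 in injured and between 138398 and 145860 in sham samples. With 4 injured and 2 sham samples, ranges can lie apart by chance. The part of these cell types in the 4 h values of Arpp21 and Crym was not tested.

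Crym was the one member whose raphe level changed over time after injury. Its injured samples read 8.04, 7.95, 7.59 and 7.27 at 4 h and 5.96, 6.18, 6.78 and 6.69 at 24 h. At 7 days they read 7.01, 7.60, 7.21 and 7.78, at 14 days 7.38, 8.19, 7.45 and 7.56, and at 28 days 8.21, 7.05, 6.31 and 7.37. At 3 months they were highest, at 7.36, 8.32, 8.41 and 8.17. The 24 h samples were all below the 4 h and the 3 months samples. The range of the group means was 1.66 (limma F test, adjusted p = 0.0461), 1 of 7 members (5 at an unadjusted p under 0.05) against 0.628% of all probe sets. This call sat at the threshold. It was lost with quantile normalization (adjusted p = 0.0798), without the filter (0.0554), with the doubted samples kept (0.356), without the 3 months groups (0.178) and with the replicate block (0.0789). Leaving out 1 injured sample at a time ended it in 18 of 24 cases, with adjusted p from 0.0159 to 0.104, and without all 5 doubted samples it was 0.0207.

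Sham raphe had as wide a course for Crym, and it narrowly missed the threshold (range 1.87, adjusted p = 0.059; 0 of 7 members, 4 at an unadjusted p under 0.05, 0.215% of all probe sets). It passed without all 5 doubted samples (adjusted p = 0.0243). The sham samples read 6.26 and 6.61 at 4 h, 5.87 and 6.49 at 24 h, 8.01 and 7.99 at 7 days, 8.10 and 7.54 at 14 days, 8.19 and 7.92 at 28 days and 6.75 at 3 months. Low values at 24 h were thus found in sham and injured raphe alike, whereas at 4 h and 3 months the injured samples were all above sham. The change of the injury effect over time did not pass for Crym (adjusted p = 0.238; 0 of 7 members, 3 at an unadjusted p under 0.05, 0.0215% of all probe sets). Crym lies near background in raphe, above the 40th percentile of its array in 2 of 11 sham and 4 of 24 injured samples. In cortex the same probe set read 11.54 to 12.55 throughout.

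**Figure D4:**
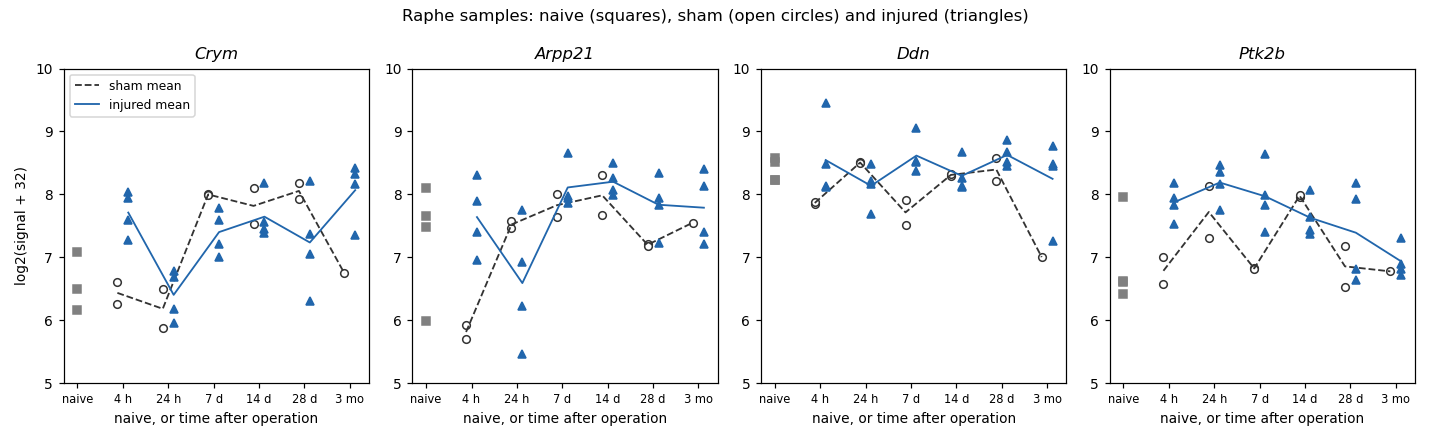
Raphe signals (log2 of the value plus 32, y axis) of Crym, Arpp21, Ddn and Ptk2b by time group (x axis), one point per sample, with open circles for sham and triangles for injured samples. Crym is low at 24 h in both treatments, 5.87 and 6.49 in sham and 5.96 to 6.78 after injury, and Arpp21 sham samples at 4 h, at 5.92 and 5.71, lie below the injured samples of that time.

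Against naive rats, which chose the genes, the differences are given without a test. In cortex the sham minus naive and injured minus naive differences of Itpka were -0.015 and -0.050, those of Arpp21 -0.024 and 0.071 and those of Crym both 0.11. Nrgn was lower by both, at -0.17 and -0.33, as was Mef2c, at -0.34 and -0.53, and Ptk2b was higher by both, at 0.26 and 0.40. In raphe, Crym was above naive in sham and injured samples, by 0.63 and 0.83, and Ptk2b by 0.26 and 0.76. Nrgn was below naive there, by -0.30 and -0.39.

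The margin between regions can also be read sample by sample, over all naive, sham and injured samples that were kept. The lowest cortex sample exceeded the highest raphe sample by 4.72 for Itpka, 3.78 for Arpp21, 3.41 for Nrgn, 3.12 for Crym, 2.79 for Fam107a and 2.67 for Ddn. For Itpka the raphe signals were at background, so the size of its margin depends on the value added before the log. The margin was 1.74 for Ptk2b, 1.66 for Hpcal4 and 0.10 for Mef2c, whose scattered cortex samples reached down to the raphe level. The other probe sets of a gene did not always share its margin. That of Nrgn had a margin of 2.66, the type B probe set of Mef2c one of 2.13 and that of Ptk2b one of 1.39. Among the 4 other probe sets of Arpp21 the margin ran from -1.13 to 1.24, and among the 3 of Hpcal4 from -0.27 to 0.66. All 10 of these probe sets had a higher mean in cortex in both sham and injured samples, by 0.73 to 6.04 in sham. The other Nrgn probe set was 0.74 ± 0.20 higher in injured than in sham raphe (adjusted p = 0.073), a size not seen in the probe set with the higher signal.

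**Figure D5:**
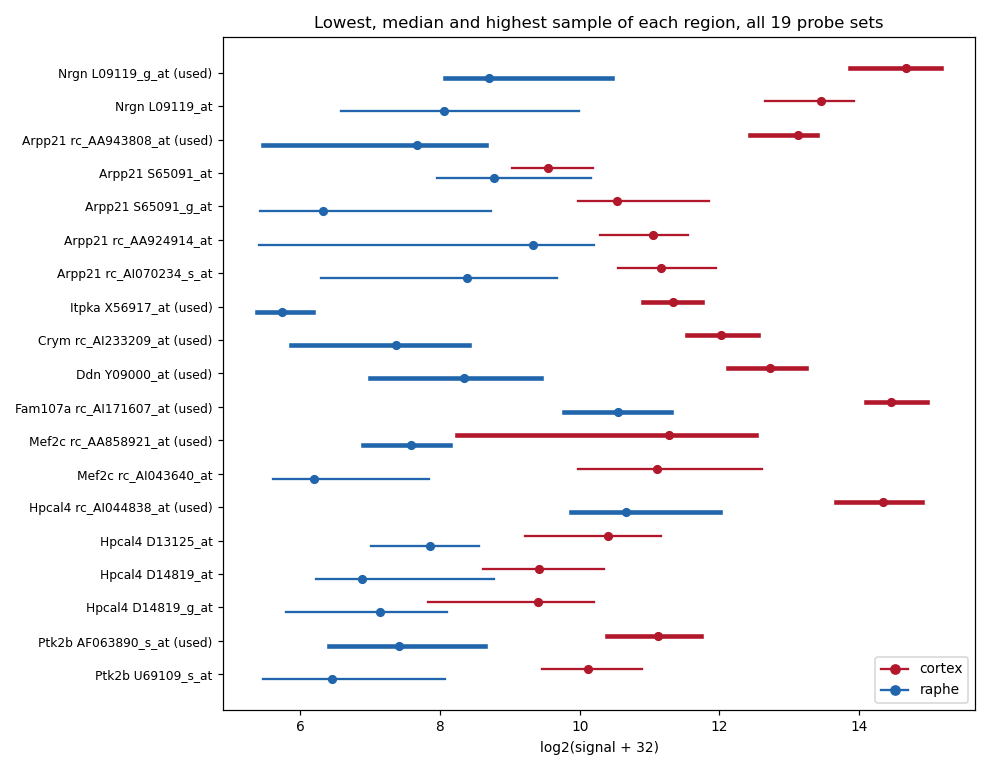
Range of signals (log2 of the value plus 32, x axis) in cortex and in raphe for all 19 probe sets of the 9 members (y axis), over naive, sham and injured samples without the 2 that were left out. The ranges of the regions lie apart for 16 probe sets and overlap for 1 of Arpp21 (margin -1.13) and 2 of Hpcal4 (margins -0.16 and -0.27).

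Genes of the same pathways were mostly higher in cortex too. Of 21 tested genes of calcium and calmodulin signalling, 13 were higher and 3 lower in sham cortex (median 0.69), where 17.8% of all probe sets were higher and 16.7% lower. The smallest p values belonged to Itpr1 at 3.68, the protein kinase C gene Prkcb at 1.90, the calcineurin gene Ppp3cb at 1.88 and the phospholipase C gene Plcb1 at 1.52. Of 8 neuronal calcium sensors besides Hpcal4, 5 were higher and 2 lower (median 0.79). Of these 8, 7 passed the filter on low signals in raphe, and the other entered through cortex alone. Hippocalcin (Hpca) was higher by 2.19, Kcnip3 by 1.53 and Kcnip2 by 1.27, whereas Hpcal1 went the other way, at -2.02. The family of Hpcal4 was thus not uniform between the regions.

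Of 17 postsynaptic genes and partners of Pyk2, 14 were higher and none lower (median 0.75). They included the scaffold genes Homer1 at 3.58, Dlgap1 at 2.12 and Shank3 at 1.72, and the phosphatase gene Ptpn5 at 0.83. Of 14 partners of Mef2, cyclic AMP and thyroid hormone receptors, 8 were higher and none lower (median 0.81), among them Ppp1r1a, an inhibitor of protein phosphatase, at 1.79, the phosphoprotein gene Arpp19 at 1.2, Mef2a at 1.14 and the adenylyl cyclase gene Adcy2 at 0.82. Of these 14, 12 passed the filter in raphe, and the others entered through cortex alone. Over all probe sets 17.8% were higher and 16.7% lower, and the median was 0.025. After injury the counts were 13 higher and 3 lower, 6 and 1, 17 and 0, and 9 and 0 in the same order. Over all probe sets 24.0% were then higher and 24.3% lower. No gene of these 4 lists passed injured against sham over the 6 times in either region, where 0.622% of probe sets passed in raphe and 0.123% in cortex. At single times Dlgap1 rose in raphe at 4 h, by 1.42, at the edge of the threshold (limma adjusted p = 0.0498, 0.108% of all tests).

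Markers of excitatory forebrain neurons were higher in cortex for 3 of 3 tested genes in sham samples (17.8% of all probe sets were). Among them, Neurod1 entered through cortex alone, being above the 40th percentile in 3 of 40 raphe samples. Slc17a7, the defining transporter gene, lay at background in both regions. The summed signal of the forebrain markers was 4676 to 6109 in naive cortex and 2025 to 2216 in naive raphe. Brainstem markers went the other way, with 6 of 8 lower in cortex (16.7% of all probe sets were) and a summed naive signal of 2233 to 2835 in cortex against 11566 to 14201 in raphe, and 6 of 6 oligodendrocyte markers were lower in cortex. Of the 8 brainstem markers, Dbh entered through raphe alone, above the 40th percentile in 0 of 42 cortex samples. Of 10 pan-neuronal markers 3 were higher and 4 lower, and Syt1 entered through cortex alone (0 of 40 raphe samples). The part of cell composition in the regional difference of the 9 members was not tested.

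Among genes outside the 9, those most alike in pattern were sought as the smallest mean absolute difference from the average member profile over the 26 groups of region, treatment and time, each profile centred on its own mean. They were Itpr1 at 0.50, the forebrain transcription factor gene Lhx2 at 0.53, Ctxn1, which encodes cortexin, at 0.54, Rasl11b at 0.56 and Homer1 at 0.56. The members themselves lay between 0.22 for Ddn and 0.63 for Nrgn. The profiles share their arrays within a type, and the regional step makes up most of each.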

How the data were processed

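RNA of rat raphe and somatomotor cortex was measured on 3 array types. The deposited intensity values are linear signals of probe sets. By the values, the authors had set each array to a common level, since its 2 percent trimmed mean lay near 801. Their software was not given in the sources used. Genes were named through the platform annotation.

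From these values log2(value + 32) was computed and modelled one array type at a time by limma 3.58.1 (R 4.3.3, with statmod 1.5.0), every group having its own mean and sharing 1 spread. Probe sets above the 40th percentile of their array on at least 4 arrays of a region were tested. Moderated tests and F tests were two-sided, adjusted by Benjamini-Hochberg over all probe sets of the 3 types, and over the 6 times for single times, with a threshold of 0.05. The fit was checked on simulated data with known changes.

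The members, the lists and the doubted samples were chosen with earlier results of these data known. Named are the members, per comparison those past the threshold and the 3 with the smallest p, from each related list up to 4 that passed, and the 5 most alike genes. The microglial and oligodendrocyte genes and Cck, Wipf3 and Itpr1 were named beside results after their values were seen. The labels do not say whether raphe and cortex samples of the same number came from the same rat, and the main fit did not pair them. Samples of 30 min and 72 h entered the tests through the filter and the choice of probe set. The 2 cortex samples of 30 min also entered through the spread, to which a group of 1 sample adds nothing. Alternatives were quantile normalization, other filters, 1 or 4 times 32 added, array weights, adjustment within a type or a time, doubted samples kept or left out, arrays of conflicting labels left out, pooled sham, a replicate block, other probe sets and each sample left out. A fit without the 3 months groups was added after seeing the data.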

Additional observations from a re-analysis of the deposited data

Results flagged for a closer look

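In 5 of 123 groups of 4 samples, each a member in one region, treatment and time, a single sample lay apart from the other three by more of the group's range than Dixon's critical value of 0.829. Chance alone gives about 1 such group in 20. Arpp21 read 8.66 in injured raphe at 7 days, replicate 4, against 7.97 for the next sample. Hpcal4 read 12.01 in injured raphe at 4 h, replicate 1, one of the 5 doubted samples, against 10.99 for the next. Ptk2b read 7.95 in naive raphe, replicate 3, against 6.62. Crym read 12.44 in injured cortex at 28 days, replicate 1, against 12.05. Itpka was the single low case, at 5.46 in injured raphe at 14 days, replicate 2, against 5.85, where its signal is at background. The 5 cases came from 5 genes, 4 in raphe and 1 in cortex.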

How the results depend on the processing

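All 9 members kept a higher mean in cortex than in raphe, in sham and in injured samples, under every alternative run. The call of Crym over time in injured raphe was the only call within a region, and the count of members there fell from 1 to 0 with quantile normalization, no filter, the 60th percentile filter (where Crym was not tested), 4 times 32 added, adjustment within each array type, the doubted samples kept, the replicate block and the 3 months groups left out. With array quality weights it was 3, and when each sample was left out it ranged from 0 to 1. Over time in sham raphe, 1 member, Crym, passed with quantile normalization, 1 added, array quality weights, without all 5 doubted samples and without the 3 months groups. Array quality weights also gave 2 members for injured against sham raphe over the 6 times (0 to 1 when each sample was left out), 1 at single times in raphe and 2 over time in injured cortex. The replicate number as a block changed no other member call. Raphe and cortex samples of the same number did not deviate together (median correlations -0.024, 0.0073 and 0.0065 by array type). Within cortex on type A, same-numbered pairs had a median correlation of 0.041 against -0.011 for other pairs. For the other types and in raphe, the medians of same-numbered pairs lay between -0.0026 and 0.012.

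Some values that missed the threshold changed sign, and none passed it with the other sign. In injured minus sham cortex, Crym was -0.0028 with quantile normalization, -0.0013 with weights, -0.051 without all 5 doubted samples and -0.070 with the replicate block (-0.066 to 0.076 when each sample was left out). Fam107a was 0.029 and Hpcal4 0.022 with quantile normalization, and with the doubted samples kept Fam107a was 0.060, Hpcal4 0.10 and Itpka 0.12. Mef2c was 0.032 with the replicate block. When each sample was left out, Hpcal4 ranged from -0.11 to 0.0089 and Itpka from -0.076 to 0.0070. By other probe sets, Arpp21 was -0.16 and -0.031, Hpcal4 0.0064, Mef2c 0.34, Nrgn 0.12 and Ptk2b -0.019. In raphe with the doubted samples kept, Arpp21 was -0.076, Crym -0.23, Fam107a -0.20 and Hpcal4 -0.36. Hpcal4 was -0.014 with quantile normalization, -0.00021 with 1 added, -0.052 with weights and -0.046 without all 5 doubted samples (-0.056 to 0.056 when each sample was left out). Without the 3 months groups Crym was -0.018 and Nrgn 0.027. By other raphe probe sets, Arpp21 was -0.073 and -0.12 over the 6 times and -0.066 and -0.40 at 4 h, Hpcal4 -0.19 and -0.060, Nrgn 0.74 and Ptk2b -0.25. With the doubted samples kept, the injury effect in cortex minus raphe was 0.26 for Fam107a and Ptk2b at 3 months in cortex was 0.32. By its other probe set that effect was 0.23 for Ptk2b.

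The number of probe sets called in all moved more than the members did. Over the 6 times it was 116 in raphe, 54 without sham at 28 days, replicate 2, 873 without injured raphe at 4 h, replicate 1, 19 with the replicate block and 1601 with weights. At single times in raphe it was 121 and over time after injury 117, with 777 and 813 without that injured sample. In cortex over the 6 times it was 23, with 11 without injured at 14 days, replicate 2. Without sham cortex at 14 days, replicate 1, it was 570, with 2336 in place of 152 at single times and 34 in place of 0 for the injury effect in cortex minus raphe. Over time in injured cortex it was 259, with 115 without injured at 3 months, replicate 4. Leaving out the single sham sample at 3 months leaves no estimate there, so that case has no value. With 2 sham samples per time and signals near background in raphe, single times are the least precise.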
